A study of Mus musculus with 4 samples.

Results

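The autophagy machinery of the mouse 2-cell embryo was taken as the protein-coding genes of GENCODE release M21 whose symbol begins with Atg and a digit, together with 22 genes named one by one: the kinases and scaffolds that start autophagy, the lipid kinase complex, the LC3 and GABARAP proteins and the main cargo receptors. The rule found 41 genes, 19 of them by the Atg symbol, among 53715 rows of the count table. All 41 passed the filter on low counts and were tested, among 25565 tested genes. One of them, Atg4a-ps, is annotated as protein-coding although its symbol calls it a pseudogene.

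Poly(A) RNA of whole embryos of C57BL/DBA2 background was sequenced from pre-amplified cDNA at the 2-cell stage. Zygotes from the oviduct had been injected with a negative control small interfering RNA (siNC, the control group, 2 libraries) or with an siRNA against SPENH0335 (siSPENH0335, the knockdown group, 2 libraries), each at 20 μM, and the harvested zygotes were kept in KSOM medium. The series concerns RNAs transcribed from enhancers, and its comparison asks what knocking down SPENH0335 does to embryonic gene expression. No row of the table is named for SPENH0335, and the depth of the knockdown is therefore unknown here. The labels state neither the number of embryos per library nor whether replicates were separate collections. The p-values therefore reflect only how these libraries vary, and that variation may be technical.

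Libraries held 78865491 to 99011109 counts, and the autophagy genes took 0.227 to 0.232% of them. All 10 genes listed as markers of the 2-cell embryo were detected. They summed to 4081 and 4225 CPM (counts scaled to library size, with TMM factors that correct for composition) in control and to 4261 and 4564 CPM in knockdown. Both knockdown libraries lay above both controls for 4 of the 10 and below both for 2, beside 15.6% and 17.1% of all tested genes. None had an adjusted p under 0.05, and 3 had an unadjusted p under 0.05 (edgeR), beside 3.85% of all tested genes. A difference in stage was not tested. Markers of cumulus and granulosa cells summed to 50.5 and 57.5 CPM in control and to 45.9 and 64.3 CPM in knockdown, with Inha at 0 in every library. Sperm markers summed to 5.8 and 6.64 CPM in control and to 3.85 and 4.16 CPM in knockdown, with Smcp at 0. Markers of blood, oviduct or stroma came to 85.2 and 100 CPM in control and to 75.9 and 81.5 CPM in knockdown, with Hbb-bs and Col3a1 at 0. The part of these other cells in the values below was not tested. In whole embryos, fewer cells and less RNA per cell cannot be told apart.

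Autophagy encloses cytoplasm in a newly made membrane sac, the autophagosome, and delivers it to the lysosome. A kinase complex built around ULK1 starts the process, a lipid kinase complex marks the membrane with the lipid PI3P, and linked conjugation reactions attach proteins of the LC3 and GABARAP families to the growing membrane, where receptors dock cargo. In the mouse, autophagy is switched on soon after fertilisation, when maternal proteins are broken down, and embryos without Atg5 from both the egg and the sperm arrest before the blastocyst stage.

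Between knockdown and control, no autophagy gene passed the test: 0 of 41 had an adjusted p under 0.05, as did 0% of all tested genes (edgeR quasi-likelihood test, Benjamini-Hochberg adjustment, smallest adjusted p 0.9999 among the autophagy genes and 0.595 over all genes). At an unadjusted p under 0.05 there was 1 autophagy gene, Wipi2, or 2.44%, against 3.85% of all tested genes (1.56% higher and 2.29% lower in knockdown). DESeq2 called 0 of the 41 (smallest adjusted p 0.791), against 0.144% of the genes with at least 1 count, and had 2 at an unadjusted p under 0.05, Ulk1 and Wipi2, beside 4.01% of its genes. Limma-voom called 0 of the 41 and 0% of all tested genes, with 1 member, Wipi2, and 3.13% of genes at an unadjusted p under 0.05. The fold change was above 0 for 20 members and below 0 for 21, with a median log2 fold change of -0.024 beside -0.0025 over all tested genes. Summed over the members, CPM was 2299 and 2276 in control and 2242 and 2390 after knockdown, so that the control values lay between the knockdown values (exact permutation test, two-sided, p = 1, where 2 against 2 libraries cannot go below 0.333).

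Both knockdown libraries lay above both controls for 4 members, Ulk1, Ulk2, Wipi1 and Atg2b, and below both for 9, Wipi2, Atg4a, Atg4b, Atg9b, Atg13, Atg101, Gabarapl2, Pik3r4 and Vmp1. The 13 members whose groups did not overlap are 31.7% of the list, and 32.7% of all tested genes were of this kind (15.6% higher and 17.1% lower). Among the 31 members with a mean of at least 10 CPM, the 95% interval of the fold change lay within 2-fold in either direction for 22 (71%), against 87.8% of all tested genes of that level. A log2 fold change beyond 0.5 in size was reached by 3 of the 31, Atg4b, Ulk1 and Wipi2 (9.68%), and by 3.8% of tested genes of that level. The plot of fold changes shows how wide the interval was for each gene.

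**Figure D1:**
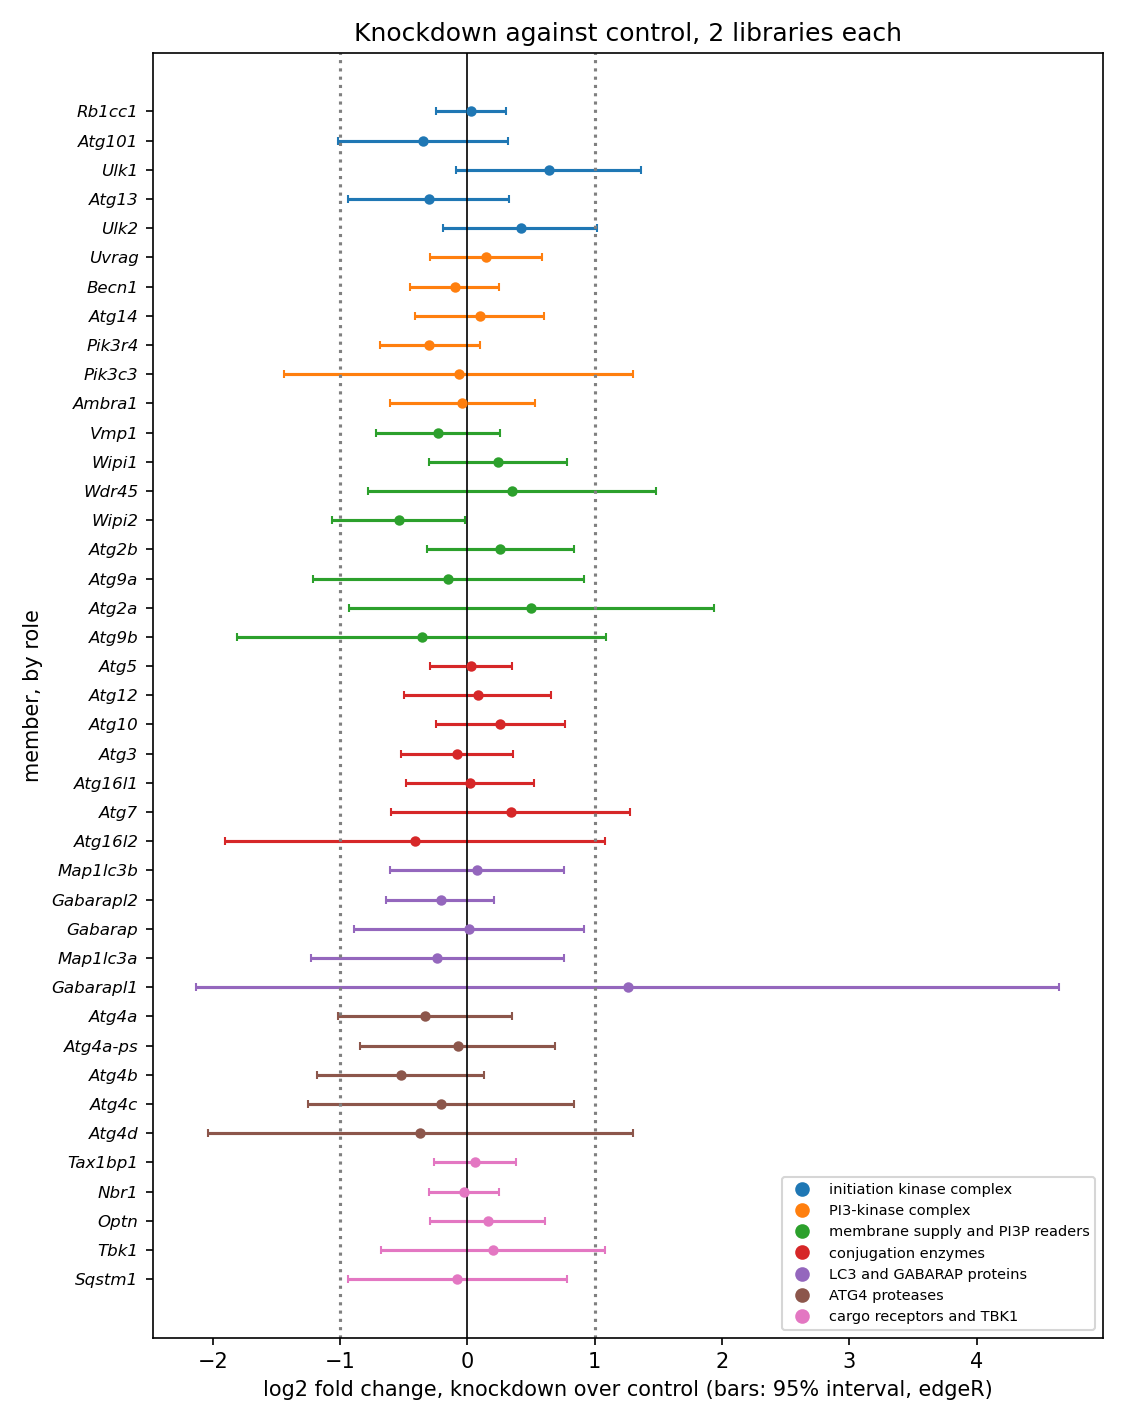
Log2 fold change of knockdown over control for the 41 autophagy genes (x axis), grouped by role (y axis and colour), with bars for the 95% interval from edgeR and dotted lines at 2-fold. Only the interval of Wipi2 stays to one side of 0, and that of Gabarapl1, from -2.13 to 4.65, is the widest.

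Levels of different genes were compared per length. Each gene's CPM was divided by the length of its merged exons and rescaled to the same total over all genes in each library (a TPM-like scale), which is called level per length below. The 41 genes spanned 1090-fold on this scale, with a median of 11.7 beside 4.51 for the 17050 tested protein-coding genes, and 31 of them lay above that median. Atg5 held 37.7% of the summed level, the first 3 genes (Atg5, Tax1bp1 and Map1lc3b) held 49.4% and the first 5, with Gabarapl2 and Rb1cc1, held 58.2%. These shares depend on the use of merged exons. By the longest transcript the mean of Atg5 was 422 in place of 504, and that of Tax1bp1 was 184 in place of 93.3. Atg5 lay above 98.9% and Tax1bp1 above 92.1% of tested protein-coding genes, and every other member was below 90%. Of the 40 pairs of neighbours in the order, 3 did not overlap in their ranges over the 4 libraries: Atg5 above Tax1bp1, Tax1bp1 above Map1lc3b, and Atg4c above Atg7. The ranges of all other neighbours overlapped. Within the libraries, 3 of those overlapping pairs kept 1 order in all 4: Atg10 above Uvrag, Atg14 above Tbk1 and Wipi2 above Atg2b. With the length of the longest transcript in place of merged exons, 9 of the first 10 genes were among the first 10 again. By that length the mean of Atg7 (1.94) was above that of Atg4c (1.92), and Uvrag (48.4) was above Atg10 (38.3). The order of these 2 pairs thus depends on the length used.

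**Figure D2:**
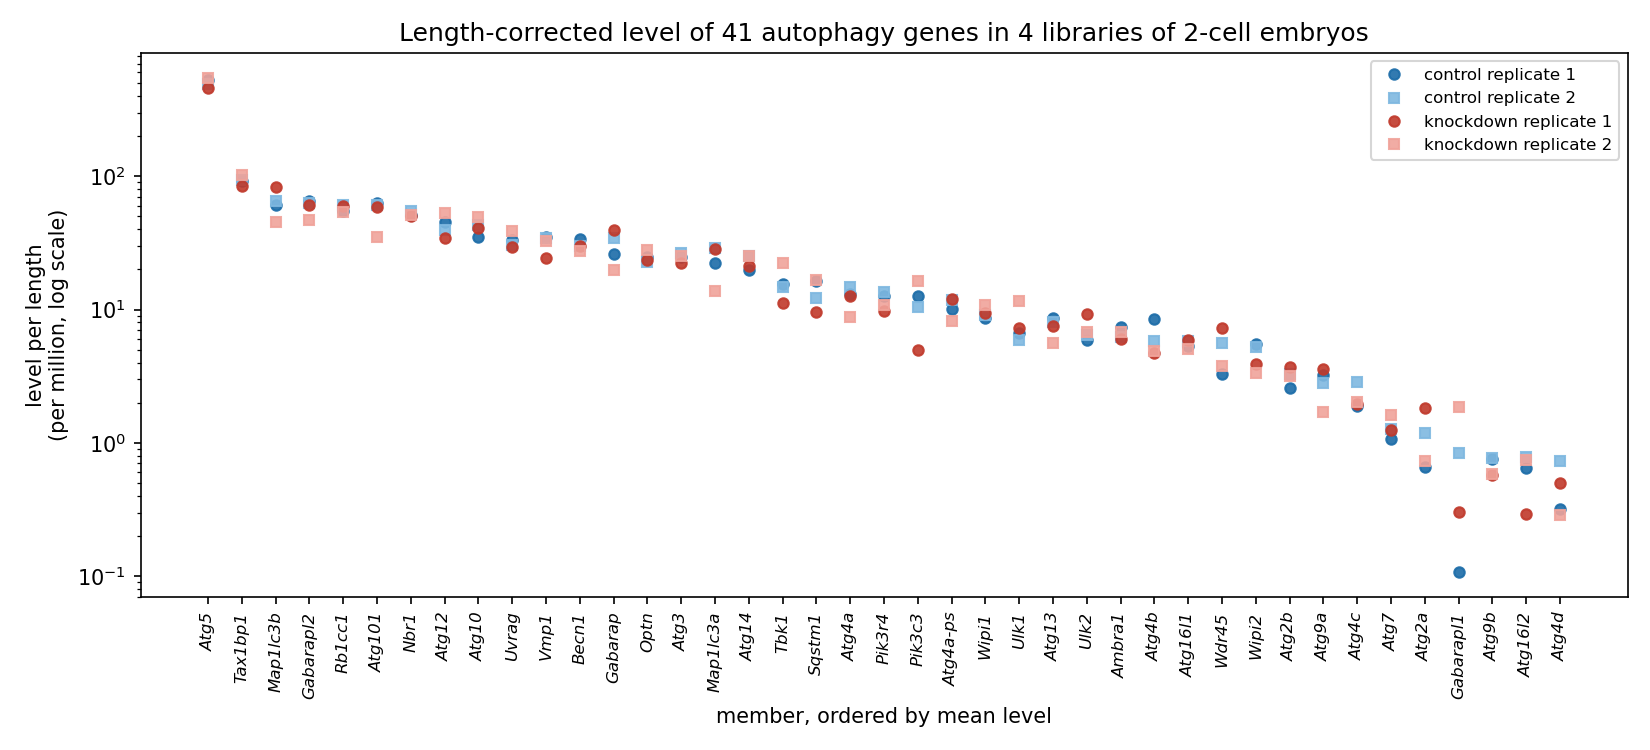
Level per length (y axis, log scale, TPM-like) of the 41 autophagy genes in each of the 4 libraries, ordered by the mean. Atg5 stands alone between 456 and 548, while Atg7, Atg2a, Gabarapl1, Atg9b, Atg16l2 and Atg4d close the order below 2 in every library.

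Among the conjugation enzymes, ATG7 activates both ATG12 and the LC3 proteins, ATG10 and ATG3 pass them on, and ATG5 joined to ATG12 and held by ATG16L1 directs LC3 to the membrane. Atg5 (chromosome 10, 44268358 to 44364291, GRCm38) was at 453 and 417 CPM in control and at 400 and 489 CPM in knockdown. The knockdown libraries lay on either side of both controls, and the log2 fold change was 0.031 with a 95% interval from -0.29 to 0.35, which is among the narrower intervals of the list. Atg12 (chromosome 18, 46730144 to 46741580), whose protein is joined to ATG5, was at 128 and 111 CPM in control and 98.6 and 155 CPM in knockdown, again with the controls inside the knockdown values. Atg10 (chromosome 13, 90935356 to 91223968) was at 22.2 and 26.8 CPM in control and 26.4 and 32.2 CPM after knockdown (log2 fold change 0.26, SE 0.21), with overlapping groups. Atg7 (chromosome 6, 114643097 to 114860614) was at 2.71 and 3.22 CPM in control and 3.22 and 4.3 CPM after knockdown (log2 fold change 0.34, SE 0.38).

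Partners in the same reaction thus differed widely in the level read from poly(A) RNA after pre-amplification. How far those steps shape the ratios between genes was not tested. On the per-length scale Atg5 was 10.4 to 13.3 times as high as Atg12 over the 4 libraries and 77.5 to 109 times as high as Atg16l1. With the longest transcript as the length, these ratios were 7.25 and 35.7. Atg5 was 337 to 496 times as high as Atg7 (217 times by the longest transcript), and Atg3 was 15.4 to 23.6 times as high as Atg7. The ratio of Atg12 to Atg10 was 0.832 to 1.29, or 1.52 by the longest transcript. RNA levels say nothing of the amounts of protein. Of the 7 conjugation genes, 5 had a fold change above 0 and 2 below, none was called, and the groups overlapped in each. Groups without overlap were found for 32.7% of all tested genes. Atg16l2, a relative of Atg16l1, had the lowest mean level of the group, 0.62.

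The LC3 and GABARAP proteins are small, ubiquitin-like and coupled to the lipid of the autophagosome membrane. Map1lc3b (chromosome 8, 121590361 to 121598760) was at 167 and 178 CPM in control and at 233 and 130 CPM in knockdown. The control values lay between the knockdown values, and the log2 fold change of 0.072 had an interval from -0.61 to 0.76. Gabarapl2 (chromosome 8, 111940703 to 111953612) was at 56 and 53.4 CPM in control and 52.6 and 41.8 CPM after knockdown (log2 fold change -0.21, SE 0.17), with both knockdown values below both controls. With the counts of its 3 processed pseudogenes added it was at 57.5 and 56.2 CPM in control and 54.1 and 43.8 CPM after knockdown, again without overlap. Gabarapl1 (chromosome 6, 129533160 to 129542346) had 7 and 49 counts in control and 22 and 134 counts in knockdown, so that replicates of one group differed more than the groups did. Its log2 fold change of 1.26 (SE 1.36) was the only one beyond 1 in size, a size that 17% of all tested genes reached. Gabarapl1 also shares 28.3% of its exon bases with 1700101I11Rik on the opposite strand, and with no strand setting stated, reads of such overlapping genes cannot be told apart.

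Map1lc3b has near-identical copies elsewhere in the genome, which matters for its counts. Its transcripts, with a coding sequence of 378 bases, aligned to 4 processed pseudogenes at 96.5 to 99.7% identity. Gm6055 (chromosome 14, 48079375 to 48079752) differed from it by 1 base over the full length, Gm6054 (chromosome 5, 147408982 to 147409359) by 7, and Gm5612 (chromosome 9, 18427543 to 18427917) by 13 of 375 aligned bases. The 80 coding bases where these 3 copies differ most, bases 90 to 169 of the Map1lc3b coding sequence, are shown because the differing positions are densest there. They come from the GENCODE M21 transcripts (GRCm38), run 5′ to 3′ on the sense strand, and have in capitals the 8 positions at which any of them differs.
Map1lc3b: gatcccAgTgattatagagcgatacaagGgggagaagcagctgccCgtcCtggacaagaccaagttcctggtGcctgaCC
Gm5612: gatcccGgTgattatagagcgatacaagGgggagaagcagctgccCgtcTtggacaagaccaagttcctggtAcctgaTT
Gm6054: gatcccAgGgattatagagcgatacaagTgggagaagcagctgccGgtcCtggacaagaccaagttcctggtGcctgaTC
Gm6055: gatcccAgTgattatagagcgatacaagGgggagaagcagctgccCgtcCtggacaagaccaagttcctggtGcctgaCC

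Within these 80 bases Gm6055 is identical to Map1lc3b, Gm6054 differs at 4 and Gm5612 at 5. Gm5612 was at 73.1 and 77.9 CPM in control and 98.2 and 41.3 CPM in knockdown. Gm6054 was at 12.5 and 14.9 CPM in control and 20.1 and 6.36 CPM in knockdown. Gm6055 was at 9.53 and 11.5 CPM in control and 16.2 and 7.41 CPM in knockdown. All 3 copies, like Map1lc3b itself, had knockdown replicate 1 as the highest and knockdown replicate 2 as the lowest library. The labels do not say how shared reads were assigned, so the split between the gene and its copies is uncertain. Summed with the 4 copies, Map1lc3b was at 263 and 282 CPM in control and 368 and 185 CPM in knockdown, and the groups still overlapped.

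**Figure D3:**
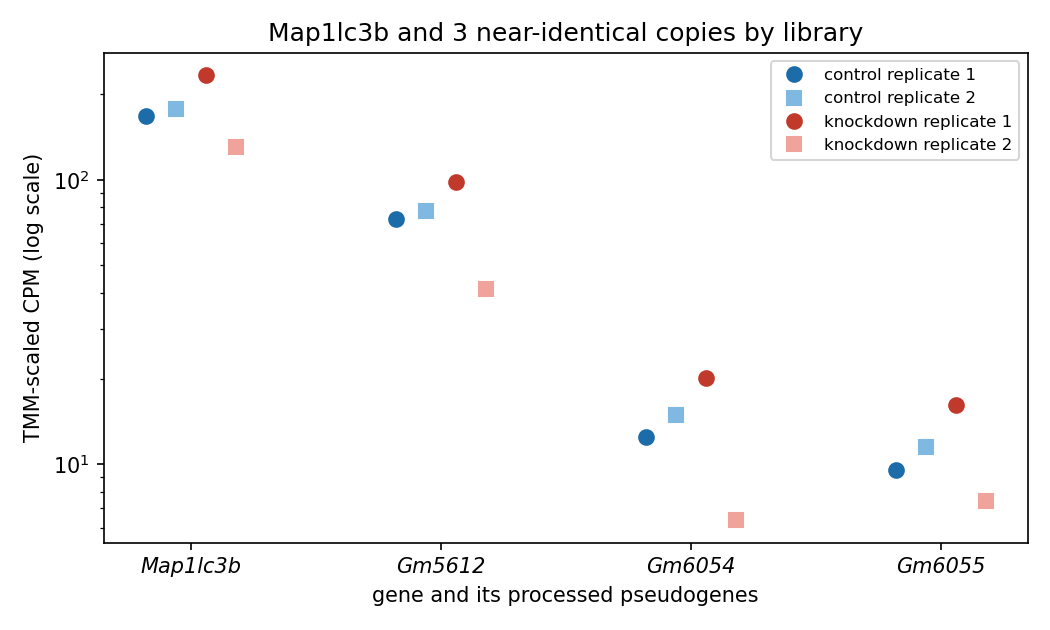
TMM-scaled CPM (y axis, log scale) of Map1lc3b and 3 processed pseudogenes (x axis) in each library. In each of the 4, knockdown replicate 1 is the highest point and knockdown replicate 2 the lowest, with both controls between them.

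The ATG4 proteases trim the LC3 and GABARAP proteins before conjugation and release them from membranes later. The 5 members here include Atg4a and its near-identical copy Atg4a-ps, whose counts could not be separated with confidence. All 5 had a fold change below 0, where 50.3% of all tested genes did, and none was called. Together they summed to 49.7 and 45.9 CPM in control and 40.5 and 34.2 CPM after knockdown; the median of their log2 fold changes was -0.33. The count of 5 rested on control replicate 2: without it, 2 of the 5 were below 0. The sum of control replicate 1 alone, at 49.7 CPM, was still above both knockdown libraries. Of that sum, 25.8 CPM came from Atg4b. Atg4a and Atg4a-ps added together, at 20.7 CPM in control replicate 1, lay between their knockdown values of 22.2 and 15.4 CPM. A decrease over the whole family is thus not shown. Atg4b (chromosome 1, 93751500 to 93790610), the broadly acting member of the family, was at 25.8 and 17.3 CPM in control and 14.5 and 15.5 CPM after knockdown (log2 fold change -0.52, SE 0.26, unadjusted p 0.0968 by edgeR). It was -0.21 without control replicate 1 and -0.78 without control replicate 2. The 2 control libraries were farther apart than the lower of them was from the knockdown. Atg4c and Atg4d, at means of 2.9 and 1.4 CPM in control, were near the lower end of the list, and Atg4d shares 19.3% of its exon bases with Kri1 on the opposite strand.

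Atg4a and its copy could not be separated with confidence. Atg4a-ps, an intronless copy of 2115 bases on chromosome 3 (103643954 to 103646068), aligned to Atg4a on chromosome X (140956907 to 141164270) over its whole length at 99.3% identity. In the 1191 coding bases, 7 differ, and the 80 with the most differences, bases 101 to 180 of the coding sequence from the same transcript set, hold 3 of them, in capitals.
Atg4a: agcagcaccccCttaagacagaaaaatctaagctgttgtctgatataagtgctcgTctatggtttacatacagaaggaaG
Atg4a-ps: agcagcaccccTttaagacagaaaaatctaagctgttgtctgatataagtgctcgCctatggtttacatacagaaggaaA

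Atg4a was at 12.9 and 14.2 CPM in control and 12.6 and 8.83 CPM after knockdown (log2 fold change -0.33, SE 0.27). Atg4a-ps was at 7.85 and 9.01 CPM in control and 9.51 and 6.55 CPM after knockdown (log2 fold change -0.07, SE 0.31). Both had their lowest value in knockdown replicate 2, and Atg4a-ps shares 23.9% of its exon bases with Syt6 on the opposite strand. Added together they were at 20.7 and 23.2 CPM in control and 22.2 and 15.4 CPM in knockdown, and the groups overlapped.

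In the initiation complex, ULK1 and ULK2 are the kinases that start autophagy, RB1CC1 (FIP200) is their scaffold, and ATG13 and ATG101 complete the complex. Ulk1 (chromosome 5, 110784488 to 110810097) was at 15.9 and 13.9 CPM in control and 17.7 and 28.6 CPM after knockdown (log2 fold change 0.64, SE 0.29, unadjusted p 0.0749, adjusted p 0.9999, edgeR). Its fold change was 0.25 without knockdown replicate 2 and 0.94 without knockdown replicate 1. Ulk2 (chromosome 11, 61775649 to 61855073) was at 13.1 and 14 CPM in control and 20.7 and 15.4 CPM after knockdown (log2 fold change 0.42, SE 0.24). Both kinase genes had each knockdown library above both controls, but the highest value came from replicate 2 for Ulk1 and from replicate 1 for Ulk2. Rb1cc1 (chromosome 1, 6206197 to 6276648) was at 294 and 325 CPM in control and 329 and 300 CPM in knockdown, and its log2 fold change of 0.025 had an interval from -0.25 to 0.30, so a 2-fold change lies outside it. Atg101 (chromosome 15, 101284272 to 101290945) was at 36.7 and 35.4 CPM in control and 35.2 and 21.3 CPM in knockdown. Knockdown replicate 1 lay close to the controls and replicate 2 well below them, and without replicate 2 the fold change was -0.029. Per length, Rb1cc1 was 4.63 to 10.3 times as high as Ulk1, or 11.3 times by the longest transcript.

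In the PI3-kinase complex, PIK3C3 (VPS34) makes PI3P, PIK3R4 and BECN1 hold the complex together, and ATG14 or UVRAG set where it acts. Pik3r4 (chromosome 9, 105642978 to 105687657) was at 45 and 47.3 CPM in control and 35.2 and 39.9 CPM after knockdown (log2 fold change -0.30, SE 0.16, unadjusted p 0.114). The groups did not overlap, as for 32.7% of all tested genes, and those of every other gene of the complex did. Becn1 (chromosome 11, 101285952 to 101302286) was at 87.8 and 76.5 CPM in control and 79.7 and 73.4 CPM in knockdown, with overlapping groups, and it shares 43.9% of its exon bases with Cntd1 on the opposite strand. Uvrag (chromosome 7, 98885021 to 99141141) was at 111 and 99.4 CPM in control and 99.4 and 133 CPM in knockdown. Its transcripts also share stretches of 214 to 345 bases, at 95% identity or more, with 15 other genes, so its counts are uncertain. Pik3c3, the catalytic subunit, was at 20.9 and 16.9 CPM in control and at 8.36 and 27.6 CPM in knockdown; its knockdown replicates were 1.72 apart on the log2 scale, and it is given here for that spread, having been picked after its values were seen.

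For membrane supply, ATG9 vesicles seed the membrane, ATG2 feeds lipid into it, VMP1 helps it leave the endoplasmic reticulum, and the WIPI proteins bind PI3P, with WIPI2 recruiting ATG16L1. Wipi2 (chromosome 5, 142627698 to 142670588) was at 21.5 and 19.9 CPM in control and 15.2 and 13.3 CPM in knockdown. Both knockdown libraries lay below both controls, with a log2 fold change of -0.54 (SE 0.21, interval -1.06 to -0.017, unadjusted p 0.045, adjusted p 0.9999, edgeR). Its relative Wipi1 (chromosome 11, 109573331 to 109611967) was at 13.9 and 14.6 CPM in control and 15.5 and 18.3 CPM after knockdown (log2 fold change 0.24, SE 0.22). Vmp1 (chromosome 11, 86583865 to 86683836) was at 49.3 and 48 CPM in control and 35.2 and 47.8 CPM in knockdown. One knockdown library of Vmp1 was thus next to the controls and the other below them. Per length, Atg2b was 2.03 to 4.31 times as high as Atg2a, and Atg9a was 2.91 to 6.24 times as high as Atg9b. The ratio of the ATG9 genes is uncertain: Atg9a shares 31.8% of its exon bases with Gm29253 on the same strand, and Atg9b had 82 to 98 counts. Of the 8 genes of the group, 4 were above 0 and 4 below.

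Of the cargo receptors, SQSTM1 (p62), NBR1, OPTN and TAX1BP1 link ubiquitin-tagged cargo to LC3 proteins, and the kinase TBK1 phosphorylates receptors. Tax1bp1 (chromosome 6, 52713729 to 52766780), the highest receptor, was at 340 and 337 CPM in control and 316 and 391 CPM in knockdown. Nbr1 (chromosome 11, 101552149 to 101581951) was at 129 and 138 CPM in control and 130 and 133 CPM in knockdown, with a log2 fold change of -0.024 (interval -0.30 to 0.25). In both, groups overlapped and a 2-fold change lies outside the interval. Optn (chromosome 2, 5020642 to 5064051) was at 34 and 31 CPM in control and 33 and 39.7 CPM in knockdown. Tbk1 (chromosome 10, 121546455 to 121586787) was at 22.4 and 20.9 CPM in control and at 16.4 and 33.2 CPM in knockdown, so that the controls lay inside the knockdown values. Sqstm1, the receptor most used as a marker of autophagy, had a mean level per length of 13.7, below Tax1bp1 at 93.3 and Nbr1 at 52, and shares 17.3% of its exon bases with Mrnip on the opposite strand. None of the 5 had groups that did not overlap, beside 32.7% of all tested genes.

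The knockdown libraries differed from each other more than the controls did for 31 of 41 members by the log2 ratio of CPM. On the scale of log2(CPM + 0.5), which can take genes at 0, this held for 32 of 41 (78%) and for 60.9% of all tested genes. Among the 24 members between 10 and 100 CPM, the median difference between replicates was 0.31 on the log2 scale in knockdown and 0.14 in control, and for the other 6050 tested genes of that level 0.29 and 0.16. At 10 CPM or more, knockdown replicates were farther apart than control replicates for 24 of 31 members (77.4%) and for 70.6% of all tested genes. Of all members, 23 of 41 (56.1%) were higher in knockdown replicate 2 than in replicate 1, beside 48.2% of all tested genes. By role, all 5 of the cargo receptors and Tbk1 were higher in replicate 2, as were 6 of 7 conjugation genes and 5 of 6 genes of the PI3-kinase complex. The LC3 and GABARAP genes other than Gabarapl1 were lower in replicate 2, 4 of 5, as were 4 of 5 genes of the initiation complex. The remaining roles were mixed. For membrane supply and PI3P readers 3 were higher and 5 lower in replicate 2, and for the ATG4 proteases 2 were higher and 3 lower. Replicates have no order, these counts describe 2 libraries of one group whatever the size of each difference (0.034 for Nbr1), and a difference between roles was not tested.

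**Figure D4:**
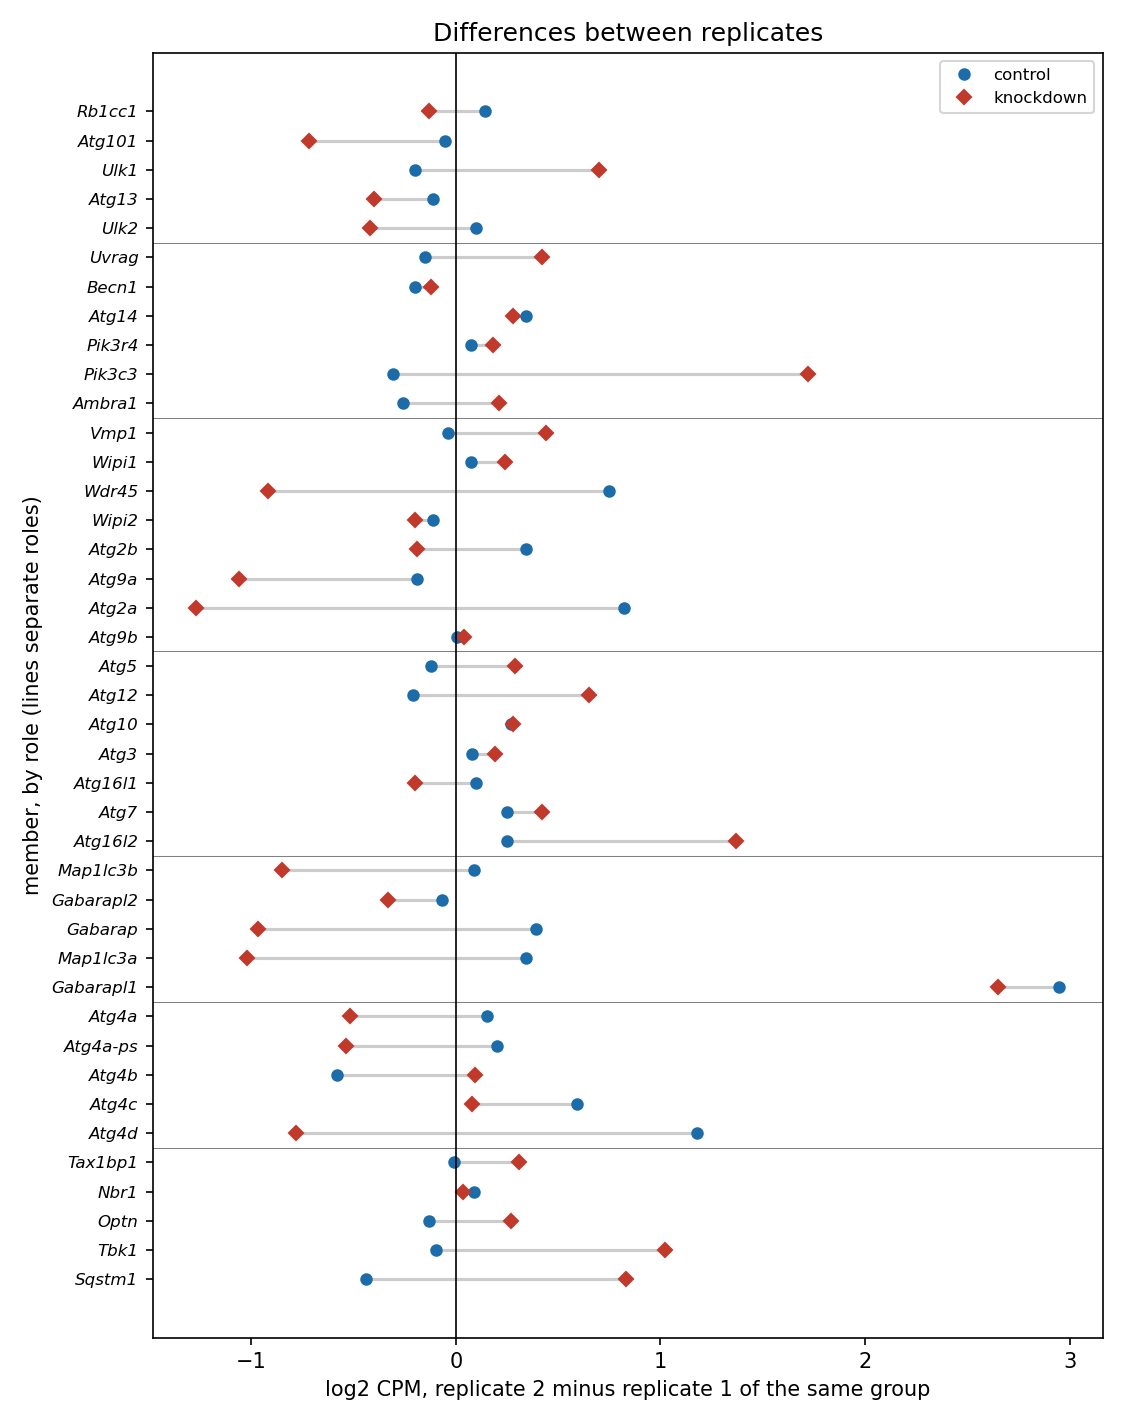
Log2 CPM of replicate 2 minus replicate 1 within control (circles) and within knockdown (diamonds) for the 41 genes, by role. Diamonds of the cargo receptors lie right of 0, while those of Map1lc3b, Gabarap, Map1lc3a and Gabarapl2 lie left of it at -0.85, -0.97, -1.02 and -0.33.

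The other genes of the pathway were counted in the same fit. Of 83 listed genes outside the rule, 82 had a row and all 82 were tested; 0 were called, 38 lay above 0 and 44 below on the log2 fold change scale (median -0.044), and 1 had an unadjusted p under 0.05. That gene was Rubcnl (Pacer), an activator of the PI3-kinase complex, at 21.9 and 21.4 CPM in control and 15.3 and 12.1 CPM after knockdown (log2 fold change -0.66, SE 0.22, adjusted p 0.9999, edgeR). In nutrient sensing by mTORC1 and AMPK, which brake and release ULK1, 12 of 24 genes were above 0 and 12 below. Its lowest p belonged to Stk11 (LKB1), the kinase that activates AMPK, at 27.2 and 27.8 CPM in control and 38.7 and 33.4 CPM in knockdown. Its most abundant gene, Rragc, a GTPase that carries amino acid signals to mTORC1, was at 268 and 256 CPM in control and 306 and 298 CPM in knockdown. For Stk11 and Rragc the groups did not overlap, as for 32.7% of all tested genes, and neither gene passed the test.

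Among the transcriptional regulators, 5 of 7 were above 0, where 49.7% of all tested genes were. Foxo3, a forkhead factor that drives autophagy genes in other tissues, was at 361 and 402 CPM in control and 431 and 442 CPM after knockdown (log2 fold change 0.20, SE 0.10). In the further core and accessory factors, with 7 of 15 above 0, Tmem41b, a lipid scramblase that works with VMP1, was at 315 and 342 CPM in control and 309 and 323 CPM in knockdown. Of the 14 measured genes of fusion with the lysosome, 13 were below 0, beside 50.3% of all tested genes, and none was called. Their median was -0.16, beside -0.0025 over all tested genes. Both knockdown libraries lay below both controls for 2 of the 14, and for 17.1% of all tested genes. Without control replicate 2 the count below 0 was 9, and without knockdown replicate 1 it was 10. The summed CPM of the 14 genes was 1307 and 1280 in control and 1091 and 1290 in knockdown, so the second knockdown library lay between the controls. Rab7, the GTPase of late endosomes, led this list at 854 and 802 CPM in control and 691 and 835 CPM in knockdown, and Vps11 had its lowest p at 7.18 and 9.25 against 6.68 and 4.4 CPM. Of the 22 selective receptors outside the rule, 13 were above 0, with the ferritin receptor Ncoa4 the most abundant at 359 and 316 CPM in control and 294 and 397 CPM in knockdown. Fundc1, a mitophagy receptor, was at 96.9 and 128 CPM in control and 90.4 and 78.3 CPM after knockdown (log2 fold change -0.41, SE 0.18).

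Promoters were read for what the members share in sequence. RefSeq promoters on GRCm38.p6, from 250 bases before the start to 50 after it, matched 34 of the 41 genes. A ratio of observed to expected CpG of at least 0.6 was found for 28 of the 34 (82.4%), and for 59.1% of the tested protein-coding genes with a promoter. These sets were not matched for level per length, whose median was 11.7 for the 41 members and 4.51 for tested protein-coding genes. Whether the difference is particular to this list was not tested. The E-box CACGTG, a palindrome that TFEB-type factors can bind, was in 5 of 34 promoters (14.7%): Atg3, Atg5, Atg7, Atg14 and Tbk1. It was in 10.6% of tested protein-coding genes. The longer TCACGTGA, which contains it, was in 1 (Atg3; 1.75% of tested protein-coding genes), and the CLEAR element, the longer palindrome around both, was in 0 (0.617%). In Atg5 and Atg14 the E-box begins 14 and 1 bases before the start, and in Tbk1 it begins after the start. Only in the conjugation genes Atg3 and Atg7 does the E-box lie before the start together with its flanking bases. Their windows, for Atg3 (chr16:45158719-45158779, plus strand) and Atg7 (chr6:114670948-114670985, plus strand), are therefore printed with the E-box in capitals.
Atg3: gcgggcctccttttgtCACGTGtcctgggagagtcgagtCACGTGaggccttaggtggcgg
Atg7: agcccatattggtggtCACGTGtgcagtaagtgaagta

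Atg3 holds 2 E-boxes, 94 and 71 bases before the start, and Atg7 holds 1 at 132 bases before it. Both genes had overlapping groups, with Atg3 at 28.9 and 30.5 CPM in control and 26.2 and 29.9 CPM in knockdown. The RefSeq start used for Atg7 lies far inside the gene's GENCODE span. The span begins at 114643097, and the printed window only at 114670948, so calling this E-box a promoter site rests on the RefSeq start. For Atg3 the window ends at 45158779, just before the GENCODE span begins at 45158785. A match of letters is a description and not a bound site.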

How the data were processed

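Gene counts for the 4 libraries were deposited as whole numbers whose totals differ between libraries, so they were read as unnormalized; rows carry Ensembl IDs with versions. Per the submitters' processing notes, which give no roles, the tools were HISAT2 2.1.0, Trim Galore 0.6.5, CASAVA 1.8 and Picard 2.18.2, and the build was mm10; the counting tool, annotation, strand setting and handling of duplicate and multiply mapped reads were not given in the sources used here. By Ensembl ID without version, 53620 of 53715 rows matched GENCODE M21 (GRCm38); the 95 others held at most 0.0164% of a library. The cDNA was pre-amplified without molecular identifiers named in the labels.

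Counts were tested in edgeR 4.0.16 (R 4.3.3) over the whole table: filterByExpr with its minimum of 10 counts, TMM scaling, the quasi-likelihood test of knockdown against control, two-sided, Benjamini-Hochberg adjustment over 25565 genes, threshold 0.05. SE was taken as log2 fold change divided by root F, with 95% intervals from the t distribution on the total degrees of freedom of the fit. The script was tested on simulated counts. DESeq2 1.42.0 and limma-voom (limma 3.58.1) were alternatives. No 2 libraries agreed within sampling noise (chi-square per degree of freedom at least 28.8). Copies were sought with blastn 2.17.0 (at least 95% identity over 200 bases).

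Members and lists were chosen with earlier results of these data known. Genes given in full are, in each role, the 2 highest by level per length and the 2 with the smallest p, and any with under 10 counts in a library; in other lists, the smallest p and the highest CPM. Atg4a-ps met the rule and was placed with the ATG4 proteases afterwards. The labels number replicates in both groups but name no shared litter, batch or day.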

Additional observations from a re-analysis of the deposited data

How the results depend on the processing

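No autophagy gene was called in any of the 11 alternative fits; among the 24 members given in full the smallest adjusted p was 0.189, for Ulk1 without knockdown replicate 1. At an unadjusted p under 0.05 there were 11 members (26.8%) and 13.1% of tested genes without knockdown replicate 1, 5 (12.2%) and 8.02% without knockdown replicate 2, 0 and 1.89% without control replicate 1, and 0 and 2% without control replicate 2. Over all genes, DESeq2 called 53 and leaving out a library called 0 to 3. The members' median was -0.065 with library totals as the only scaling, where the median of all genes was -0.041, and ran from -0.049 to 0.032 over the fits that left out a library. The summed CPM, at a log2 ratio of 0.018, was at -0.023 with library totals only and ran from -0.029 (without knockdown replicate 2) to 0.063 (without knockdown replicate 1). Of the 24 members given in full, 14 kept their direction in every fit that held them, though not their size: leaving out a library gave ranges of 0.19 to 0.62 for Ulk2, -0.75 to -0.029 for Atg101, -0.46 to -0.024 for Vmp1, -0.39 to -0.051 for Gabarapl2, -0.62 to -0.092 for Atg4a, 0.12 to 0.36 for Wipi1 and -0.64 to -0.44 for Wipi2. Atg5 was at -0.014 with library totals only and at -0.0034 with a mean of at least 10 CPM, and Rb1cc1 at -0.012 and -0.0032. Leaving out a library turned Atg5 (-0.12 to 0.17), Rb1cc1 (-0.047 to 0.10), Tax1bp1 (-0.10 to 0.21), Map1lc3b (-0.41 to 0.44), Nbr1 (-0.071 to 0.02), Atg12 (-0.27 to 0.37), Uvrag (-0.073 to 0.35), Tbk1 (-0.39 to 0.62), Atg4a-ps (-0.36 to 0.18) and Gabarapl1 (-0.59 to 3.37); the cause was not tested. With the replicate number as a block, 0 members and 0 genes were called, 0 members and 1.87% of genes had an unadjusted p under 0.05, and the members' median was -0.039; deviations of same-numbered libraries correlated at -0.069 over all tested genes. The counts of ATG4 and fusion genes below 0 under other fits, the sums with copies and a sum without Atg5 (log2 ratio 0.015) were chosen after seeing the data. Members under 10 CPM have no value under the stricter filter. At 2 libraries a group, fold changes of genes with few counts, such as Gabarapl1, have intervals far wider than 2-fold.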
